A study of Mus musculus with 16 samples.

Results

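The autophagy machinery of CD11b+ brain cells was represented by 43 listed genes, of which 42 were found in the deposited counts under the listed name and all 42 had more than 10 counts in at least 4 of the 16 libraries. These 42 members were followed among 14565 genes that passed the same minimum, out of 24421 rows. Rubcn, the listed gene for a negative regulator of autophagosome maturation, stands in the counts under its older symbol 1700021K19Rik. It was left out of all counts of members and its values are given separately.

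The 3 groups were female C57BL/6J mice, with 1 library per mouse (CON n = 4, MAL n = 5, MAL-BG n = 7). CON mice stayed on standard chow from weaning, MAL mice ate an isocaloric chow low in protein and fat for 1 month, and MAL-BG mice ate the same low chow and were in addition gavaged with a mixture of Bacteroidales and E. coli. CON and MAL mice were gavaged with PBS. MAL-BG against MAL therefore compares gavages on the same diet, and MAL-BG against CON compares diet and gavage together. CD11b marks the surface of microglia and of other cells of the myeloid lineage, and cells carrying it were held on magnetic beads after the tissue was dissociated (whole cerebra in the study's methods, cortex in the labels).

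Macroautophagy wraps part of the cytoplasm in a growing double membrane, closes it to an autophagosome, and fuses that with the lysosome. The ULK kinase complex starts the process, a class III PI3-kinase marks the membrane with a lipid, and ATG9A, ATG2, and the WIPI proteins bring in further lipids. Ubiquitin-like conjugation systems then attach proteins of the ATG8 family (LC3 and GABARAP) to the membrane, where cargo receptors bind them. In microglia, the same proteins are known to serve in the degradation of engulfed material.

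Levels are given as CPM (read counts relative to the library's total), scaled between libraries with the TMM method, and "called" means an adjusted p under 0.05 in the quasi-likelihood test of edgeR across all 14565 genes. DEGs are called genes whose log2 fold change was also above 0.58 in size. Library totals were 10312703 to 13461574 counts in CON, 10864121 to 12819982 in MAL, and 14191791 to 18705202 in MAL-BG. Of 20 microglial markers, 15 were higher in MAL-BG against either group. Their summed level was 27870 to 47290 CPM in CON and MAL and 57730 to 80400 CPM in MAL-BG. All 13 choroid plexus markers were lower against CON and 12 against MAL, with sums of 14000 to 54260 CPM in CON, 6503 to 42690 in MAL, and 1777 to 16590 in MAL-BG. Of 14 neuronal markers, 13 were lower in both comparisons (122.9 to 596.1 CPM in CON and MAL, 30.1 to 85.8 in MAL-BG). Of 14 neutrophil markers tested (Ly6g not analysed), 13 were higher in both, and their sum was 489.8 to 1230 CPM in CON and MAL. It was 2690, 15040, and 3499 CPM in MAL-BG replicates 2, 5, and 7, while the other 4 MAL-BG libraries (607.9 to 1128 CPM) lay within the range of CON and MAL. Markers of ependyma (9 of 10 against CON and 7 against MAL, sums of 69.6 to 279 CPM in CON and MAL and 36.7 to 135 in MAL-BG), of astrocytes (6 of 10 in both, 308 to 670 and 167 to 320 CPM), and of monocytes (4 and 5 of 10, 1259 to 2257 and 500.1 to 1740 CPM) were lower, as were 7 and 10 of 14 early response genes (23530 to 52510 and 12780 to 35970 CPM), of which 1 was higher against MAL. In bulk RNA, fewer cells of a type and less RNA per cell cannot be told apart, and the part of these cell types in the values below was not tested.

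A few libraries stood apart. CON replicate 1 and MAL replicate 4 held lower choroid plexus sums than the other libraries of their groups (14000 and 6503 CPM) and the highest sums of 14 early response genes (46740 and 52510 CPM). In the opposite direction, MAL-BG replicate 6 was the MAL-BG library least changed for 10 of the 15 members that were called in the same direction in both MAL-BG comparisons. Values without CON replicate 1 and MAL replicate 4 together are given for each member whose call they changed.

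The autophagy machinery split in MAL-BG, with more members lower than higher and a minority as DEGs. Against CON, 4 of 42 members were higher and 14 lower, beside 19.8% and 25.2% of all genes. Against MAL, 6 were higher and 14 lower, beside 20.2% and 24.1% of all genes. As shares of the 42 members, these are 9.5% and 33.3% against CON and 14.3% and 33.3% against MAL. The DEGs were 2 higher and 6 lower against CON (11.4% and 21.7% of all genes) and 2 higher and 3 lower against MAL (10.2% and 20.2% of all genes). The share of DEGs among members was below that among all genes in each case, and this difference was not tested. The higher DEGs in both comparisons were Atg101 and Wdr45, and the lower DEGs in both were Calcoco1, Atg4a, and Wipi2. In all, 12 members were lower in both comparisons, 3 were higher in both, and 19 were called in neither. The 2 comparisons share the MAL-BG libraries, and the shares of all genes called in both were not counted.

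The median log2 fold change over the 42 members was -0.02 against CON (-0.04 over all genes) and -0.06 against MAL (-0.03 over all genes). Summed over members, the level was 2673 to 2941 CPM in CON, 2593 to 2783 CPM in MAL, and 2403 to 2771 CPM in MAL-BG. The ranges of the 3 groups overlapped. Only Atg5 stood higher in all 7 MAL-BG libraries than in all 9 CON and MAL libraries, as did 6.17% of all genes, and only Calcoco1 stood lower in all 7, as did 6.36% of all genes. Between MAL and CON, 0 of 42 members and 0 of all genes (0.0%) were called with edgeR. At an unadjusted p under 0.05 these were 1 member, Sqstm1, and 212 genes, and DESeq2 also called 0 members.

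**Figure D1:**
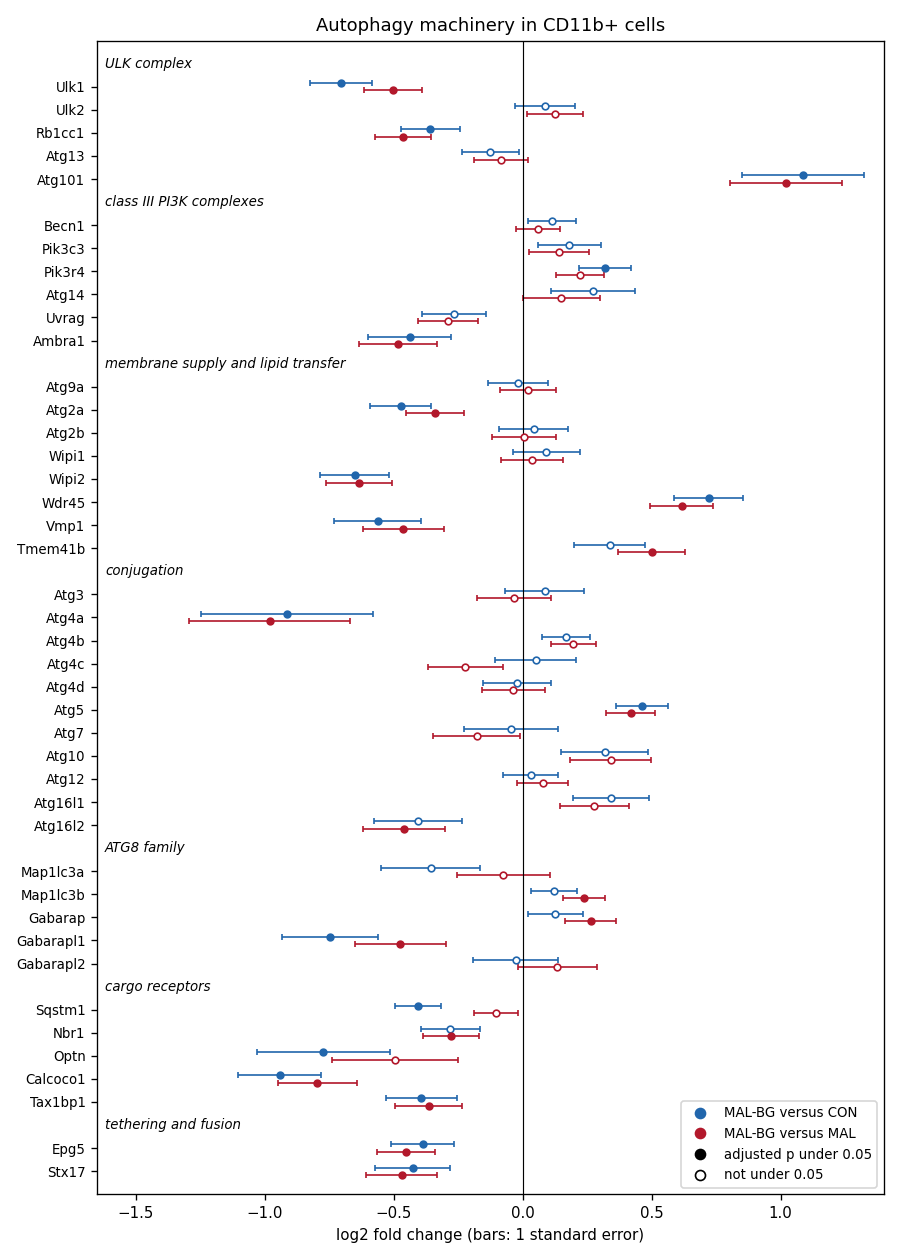
Log2 fold change of the 42 members (x axis, bars of 1 standard error) for MAL-BG against CON (blue) and against MAL (red), grouped by role, with filled points for an adjusted p under 0.05. On the TMM scaling shown, cargo receptors and the tethering and fusion genes lie on the negative side (Nbr1 and Epg5 turned with offsets for length and GC content), while Atg101 lies farthest to the positive side at 1.09 and 1.02.

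The directions depended on how libraries were scaled. Libraries were also scaled by the mean log2 CPM over genes in place of TMM. The median of all genes then shifted to 0.21 against CON and 0.19 against MAL. The members split into 15 higher and 4 lower against CON (4656 and 2613 of all genes). Against MAL, 14 were higher and 3 lower (4765 and 2468 of all genes). Offsets for transcript length and GC content were then added to the same scaling. With them, 14 members were higher and 6 lower against CON (4691 and 2538 of all genes). Against MAL, 15 were higher and 5 lower (4650 and 2353 of all genes). The same offsets with TMM gave 7 higher and 11 lower members against CON (2805 and 3693 of all genes). Against MAL, they gave 9 higher and 7 lower (2858 and 3452 of all genes). On the mean log2 CPM scaling the median of the members was 0.22 and 0.17, close to that of all genes. Few members were called in 1 direction under all 6 scalings. Against CON these were 4 higher (Atg101, Wdr45, Atg5, and Pik3r4) and 2 lower (Calcoco1 and Gabarapl1). Against MAL they were 4 higher (Atg101, Wdr45, Atg5, and Tmem41b) and 3 lower (Calcoco1, Wipi2, and Atg4a). The other lower calls, and those of Gabarap and Map1lc3b against MAL, were lost under at least 1 scaling.

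Single libraries also carried calls. Without any 1 library, the lower calls that remained were Ulk1, Atg2a, Wipi2, Gabarapl1, Sqstm1, and Calcoco1 against CON and Ulk1, Rb1cc1, Wipi2, Epg5, and Calcoco1 against MAL. The count of lower members against CON was 8 without MAL-BG replicate 1, 6 without replicate 2, 6 without replicate 4, 6 without replicate 7, and 9 without CON replicate 2. Of all genes, 3067, 3066, 3013, 2943, and 2996 were lower in the same order, beside 3677 with all libraries. Against MAL, the count of lower members was 7, 8, 6, and 6 without the same MAL-BG libraries, 8 without MAL replicate 3, and 9 without MAL replicate 5. In this order, 2929, 2898, 2827, 2792, 2952, and 2996 of all genes were lower, beside 3517 with all libraries. Of the higher calls, all but Pik3r4 against CON and all but Gabarap and Map1lc3b against MAL remained without any 1 library. CON replicate 1 and MAL replicate 4 were also left out together. Then 7 members were higher and 9 lower against CON (3826 and 3520 of all genes). Against MAL, 10 were higher and 10 lower (3752 and 3486 of all genes). In this setting, 6 of the lower calls against CON (Rb1cc1, Ambra1, Atg2a, Vmp1, Epg5, and Stx17) and 4 against MAL (Ambra1, Vmp1, Atg16l2, and Nbr1) were lost.

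**Figure D2:**
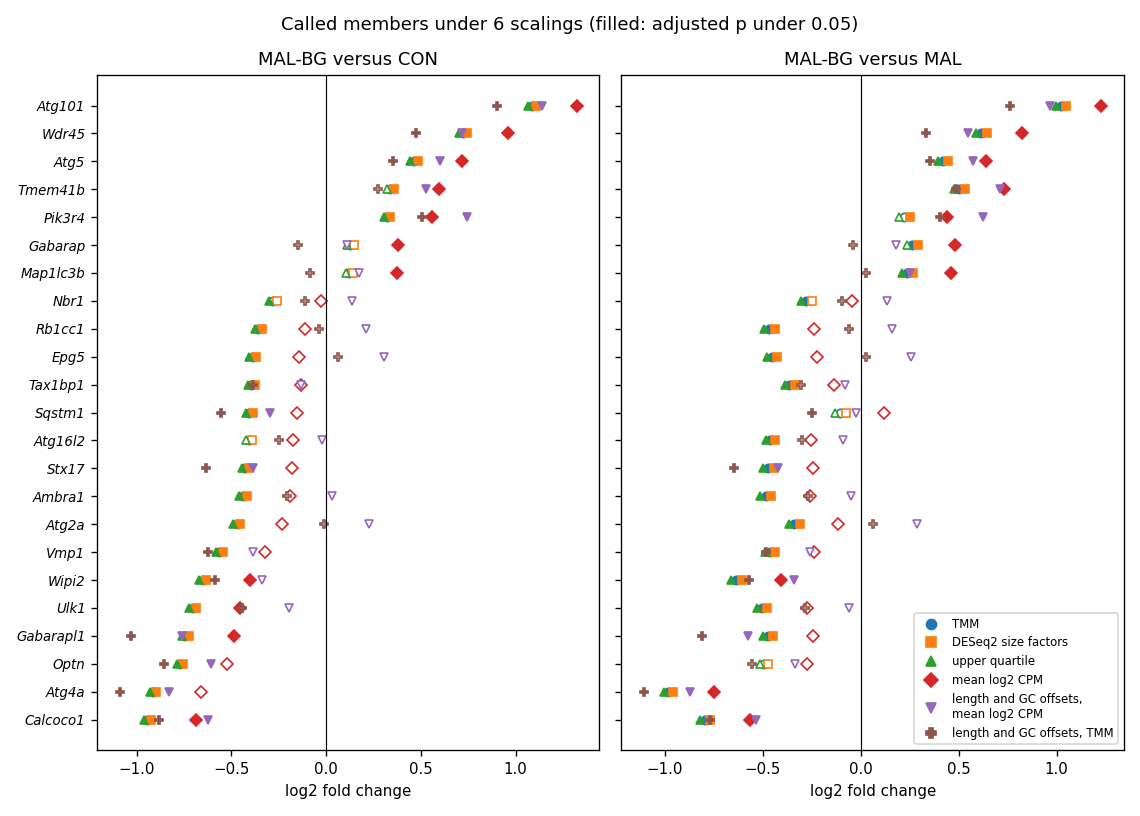
Log2 fold change (x axis) of the 23 members called in at least 1 comparison under 6 ways to scale the libraries (symbols), filled where the adjusted p was under 0.05. The symbols of Atg101, Wdr45, and Atg5 all lie above 0 and those of Calcoco1, Atg4a, and Wipi2 all lie below 0, while Epg5, Atg2a, and Rb1cc1 have symbols on both sides.

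Promoters are shown for the member with the largest rise (Atg101), the 1 member above all other libraries (Atg5), the conjugation gene with the highest level per length (Atg3), and the member with the largest fall against CON (Calcoco1). The RefSeq windows run from 250 bases before to 50 bases after the transcript start on GRCm38.p6, at chr15:101284051-101284350 (+ strand), chr10:44268089-44268388 (+ strand), chr16:45158579-45158878 (+ strand), and chr15:102722129-102722428 (- strand). Capitals mark the E-box CACGTG, the core of the sites bound by TFEB and related factors, and its extension TCACGTGA, which contains the E-box and was searched with it on both strands.
Atg101: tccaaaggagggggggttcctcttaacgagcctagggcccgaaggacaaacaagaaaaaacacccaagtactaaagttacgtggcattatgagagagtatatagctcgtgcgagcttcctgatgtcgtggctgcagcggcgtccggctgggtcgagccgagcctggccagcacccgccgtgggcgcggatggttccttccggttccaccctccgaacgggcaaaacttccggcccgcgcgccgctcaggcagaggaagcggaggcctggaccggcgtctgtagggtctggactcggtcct
Atg5: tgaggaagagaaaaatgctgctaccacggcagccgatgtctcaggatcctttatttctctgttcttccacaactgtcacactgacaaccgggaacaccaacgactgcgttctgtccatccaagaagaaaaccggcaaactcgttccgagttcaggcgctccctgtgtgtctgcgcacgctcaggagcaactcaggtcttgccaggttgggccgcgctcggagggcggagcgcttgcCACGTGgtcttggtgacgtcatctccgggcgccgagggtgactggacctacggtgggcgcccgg
Atg3: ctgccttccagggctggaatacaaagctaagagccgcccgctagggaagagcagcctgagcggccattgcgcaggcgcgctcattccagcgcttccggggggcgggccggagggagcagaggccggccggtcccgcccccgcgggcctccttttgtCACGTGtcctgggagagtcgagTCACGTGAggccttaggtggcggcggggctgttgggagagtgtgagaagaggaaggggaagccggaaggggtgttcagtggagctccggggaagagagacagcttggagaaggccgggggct
Calcoco1: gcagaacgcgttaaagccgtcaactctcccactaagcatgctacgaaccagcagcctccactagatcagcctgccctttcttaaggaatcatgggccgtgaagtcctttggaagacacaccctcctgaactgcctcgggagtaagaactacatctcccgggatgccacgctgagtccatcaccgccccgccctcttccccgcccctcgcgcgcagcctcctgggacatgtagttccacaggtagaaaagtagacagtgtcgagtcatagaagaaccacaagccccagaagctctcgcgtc
The Atg5 window holds 1 E-box and the Atg3 window 2, the second of them extended, while these letters do not occur in the Atg101 and Calcoco1 windows. A window was found for 35 of the 42 members and 11034 of all genes tested. Of these, 4 members (11.4%) and 1232 genes (11.2%) held an E-box. Besides Atg3 and Atg5 these members were Atg7 and Atg14. The extended E-box was in 1 member (2.86%) and 2.04% of genes, and the FOXO site GTAAACA in 0 members and 3.14% of genes.

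The ULK complex diverged between its subunits. Atg101, which codes for a subunit that stabilizes ATG13 (chr15:101284301-101290947, + strand of GRCm38.p6), stood at 36.7, 35.5, 29.9, and 28.2 CPM in CON replicates 1 to 4, at 31.4, 32.97, 29.3, 46.7, and 29.9 CPM in MAL replicates 1 to 5, and at 35.9 (lowest), 62.5 (median), and 112 CPM (highest) in MAL-BG. All MAL-BG libraries except replicate 6 were above all CON and MAL libraries. The group means were 32.6 ± 4.16 CPM (SD, n = 4), 34.1 ± 7.23 CPM (n = 5), and 69.2 ± 24.4 CPM (n = 7). The log2 fold change of Atg101 was 1.09 (SE 0.24, adjusted p = 0.00167) against CON and 1.02 (SE 0.22, adjusted p = 0.00151) against MAL. It came to 1.20 and 1.13 without MAL-BG replicate 6.

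Ulk1, the kinase of the complex, fell by 0.71 on the log2 scale against CON (SE 0.12, adjusted p = 0.000268) and by 0.50 against MAL (SE 0.11, adjusted p = 0.00205). Its levels ran from 70.5 to 80.6 CPM in CON, 55.8 to 72.8 CPM in MAL, and 37.9 to 58.6 CPM in MAL-BG, so that MAL-BG lay below CON and overlapped MAL. Rb1cc1, the gene of the scaffold protein FIP200, fell by 0.36 (adjusted p = 0.0185) and 0.47 (adjusted p = 0.00263). Without CON replicate 1 and MAL replicate 4, the value against CON was -0.24 (adjusted p = 0.161) and the call was lost. The Rb1cc1 estimate changed sign to 0.21 and 0.16 with offsets for length and GC content on the mean log2 CPM scaling. The kinase paralog Ulk2 and the adaptor Atg13 were not called, at log2 fold changes of 0.09 and -0.12 against CON.

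The class III PI3-kinase complexes held 1 call in each direction against CON among 6 members. This is 16.7% each, beside 19.8% higher and 25.2% lower of all genes. Becn1, the gene of Beclin 1, had the highest level per length of this group (72.7 CPM per kb of transcript over all libraries). Its level was 111, 97.2, 107, and 99.5 CPM in CON, 104, 102, 102, 127, and 103 CPM in MAL, and 102 (lowest), 110 (median), and 132 CPM (highest) in MAL-BG. The 3 groups overlapped. The log2 fold changes of Becn1 were 0.11 (SE 0.09, adjusted p = 0.340) and 0.06 (SE 0.09, adjusted p = 0.602). With CON replicate 1 and MAL replicate 4 both left out, the value against CON was 0.22 (adjusted p = 0.0445).

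Pik3r4, the regulatory subunit of the kinase, rose by 0.32 against CON (SE 0.10, adjusted p = 0.0155), and its value against MAL was 0.22 (adjusted p = 0.0613). CON replicate 1 was at 45.8 CPM, the other CON libraries at 34.5 to 35.1 CPM, and MAL-BG at 41.1 to 53.1 CPM. Without CON replicate 1 and MAL replicate 4 the rise was 0.51 against CON and 0.30 against MAL, with adjusted p of 0.000646 and 0.0110. Ambra1, which links Beclin 1 to its regulation, fell by 0.44 (adjusted p = 0.0353) and 0.48 (adjusted p = 0.01598). Neither Ambra1 call remained without these 2 libraries (adjusted p = 0.312 and 0.0502). The catalytic subunit Pik3c3 and the alternative adaptors Atg14 and Uvrag were not called, with log2 fold changes against CON of 0.18, 0.27, and -0.26. Without the same 2 libraries, Atg14 was called against CON (0.49, adjusted p = 0.0371). Rubcn, the Beclin 1 complex inhibitor listed apart, fell by 0.38 (adjusted p = 0.0146) and 0.39 (adjusted p = 0.00825), and the sign turned with offsets for length and GC content on the mean log2 CPM scaling (0.11 and 0.07). Its call against CON was also lost without CON replicate 1 and MAL replicate 4 (-0.24, adjusted p = 0.155).

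Among the 8 genes of membrane supply and lipid transfer, the WIPI family went both ways. Wipi2, which recruits the conjugation machinery to the lipid made by the PI3-kinase (chr5:142629533-142669672, + strand), was at 61.5, 57.0, 59.0, and 57.7 CPM in CON, at 62.1, 68.3, 59.3, 48.8, and 51.9 CPM in MAL, and at 30.9 (lowest), 33.1 (median), and 50.0 CPM (highest) in MAL-BG. MAL-BG lay below all CON libraries and overlapped MAL only through replicate 6. The log2 fold change of Wipi2 was -0.65 (SE 0.14, adjusted p = 0.00113) against CON and -0.63 (SE 0.13, adjusted p = 0.000937) against MAL.

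Wdr45, also named WIPI4 and a partner of ATG2 in lipid transfer (chrX:7721987-7728201, + strand), was at 27.2, 26.4, 24.8, and 26.0 CPM in CON, at 29.3, 24.9, 26.4, 34.6, and 25.1 CPM in MAL, and at 32.4 (lowest), 43.8 (median), and 51.7 CPM (highest) in MAL-BG. All MAL-BG libraries were above CON, and replicate 6 was below MAL replicate 4. Wdr45 rose by 0.72 (SE 0.13, adjusted p = 0.000507) and 0.62 (SE 0.12, adjusted p = 0.000914). Its exons share 818 bases on the same strand with those of Gm45208 in GENCODE M21, and how reads there were counted is not known.

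Vmp1, a lipid scramblase of the endoplasmic reticulum, had the highest level per length of this group (27.3 CPM per kb). Its level was 114, 74.2, 93.9, and 81.9 CPM in CON, 83.6, 80.04, 77.9, 87.5, and 95.5 CPM in MAL, and 42.8 (lowest), 55.9 (median), and 79.0 CPM (highest) in MAL-BG. MAL-BG overlapped both groups, with 3 libraries (replicates 1, 5, and 6) near them. Vmp1 fell by 0.56 (SE 0.17, adjusted p = 0.0116) and 0.46 (SE 0.16, adjusted p = 0.0244), and without CON replicate 1 and MAL replicate 4 the values were -0.36 and -0.39 (adjusted p = 0.133 and 0.0718). The microRNA gene Mir21a lies on the same strand within the exons of Vmp1.

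Tmem41b, a scramblase that works with Vmp1, was higher against MAL (0.50, SE 0.13, adjusted p = 0.00537), and its value against CON was 0.34 (adjusted p = 0.0561). Atg2a, a lipid channel between membranes, fell by 0.47 (adjusted p = 0.00439) and 0.34 (adjusted p = 0.0216), and changed sign to 0.23 and 0.29 with offsets for length and GC content on the mean log2 CPM scaling. Without CON replicate 1 and MAL replicate 4, the Atg2a call against CON was lost (-0.29, adjusted p = 0.0587). Its paralog Atg2b was not called (0.04 and 0.00). The remaining members, the scramblase Atg9a and the lipid binder Wipi1, were not called either, with values of -0.02 and 0.09 against CON.

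**Figure D3:**
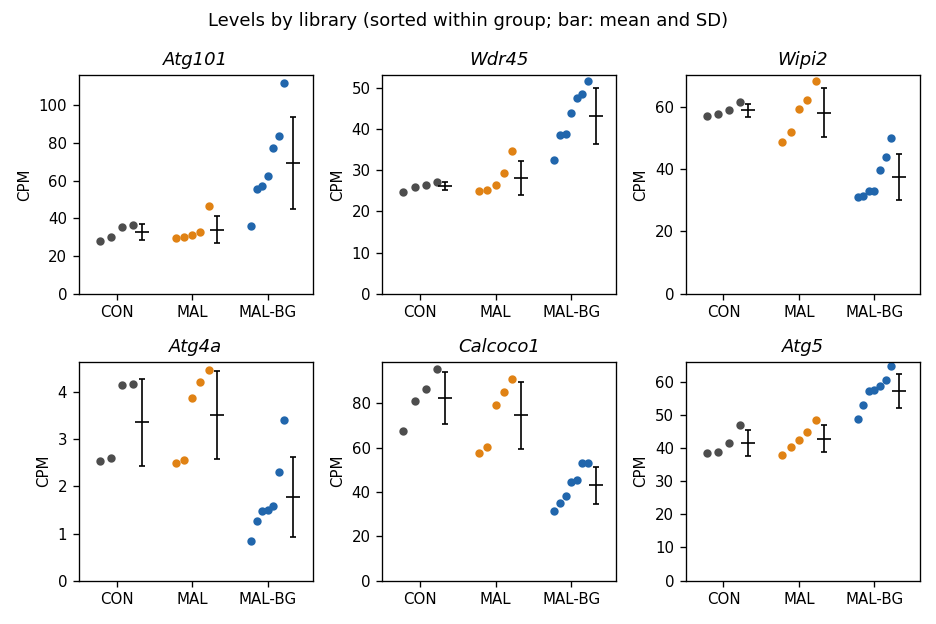
CPM of single libraries (points, sorted within each group) with the mean and SD of the group for Atg101, Wdr45, Wipi2, Atg4a, Calcoco1, and Atg5. For Atg101, 6 MAL-BG libraries lie above all others and 1 lies at 35.9 CPM, and for Calcoco1 the 7 MAL-BG libraries end at 53.1 CPM, below the lowest MAL library at 57.5 CPM.

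The 11 genes of the conjugation systems held calls in both directions. Against CON, 1 was higher and 1 lower (9.1% each, beside 19.8% and 25.2% of all genes). Against MAL, 1 was higher and 2 lower (9.1% and 18.2%, beside 20.2% and 24.1% of all genes). These differences were not tested. Atg3, the enzyme that passes ATG8 proteins on to lipid, had the highest level per length (26.2 CPM per kb) and was not called. Its level was 46.8, 54.7, 52.5, and 50.3 CPM in CON, 56.6, 60.7, 49.8, 54.1, and 56.4 CPM in MAL, and 36.4 (lowest), 53.4 (median), and 69.7 CPM (highest) in MAL-BG. MAL-BG spread to both sides of the other groups, with log2 fold changes of 0.09 (SE 0.15) and -0.03 (SE 0.14).

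Atg5, the target of the ATG12 conjugation (chr10:44268322-44364299, + strand), was named after its values were seen. It was at 38.5, 41.6, 47.1, and 39.0 CPM in CON, at 40.3, 44.9, 37.9, 48.5, and 42.5 CPM in MAL, and at 48.9 (lowest), 57.5 (median), and 64.8 CPM (highest) in MAL-BG. The lowest MAL-BG library lay just above the highest MAL library. Atg5 rose by 0.46 (SE 0.10, adjusted p = 0.00175) against CON and by 0.42 (SE 0.09, adjusted p = 0.00220) against MAL, and was called without any 1 library.

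Atg4a, 1 of 4 proteases that trim ATG8 proteins (chrX:140953845-141164194, + strand), had the lowest level per length of all members (1.23 CPM per kb). It was at 2.53, 4.17, 2.601, and 4.16 CPM in CON, at 2.55, 3.88, 4.47, 2.50, and 4.22 CPM in MAL, and at 0.843 (lowest), 1.495 (median), and 3.42 CPM (highest) in MAL-BG. Replicate 5 kept MAL-BG within the range of the other groups. Atg4a fell by 0.91 (SE 0.33, adjusted p = 0.0337) and 0.98 (SE 0.31, adjusted p = 0.0178). The call against CON was lost without any 1 of CON replicates 2 and 4 or MAL-BG replicates 1, 2, 4, and 7, and that against MAL without MAL replicate 3, with a largest adjusted p of 0.103 and 0.0522.

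The other proteases Atg4b, Atg4c, and Atg4d were not called, with log2 fold changes against CON of 0.17, 0.05, and -0.02. Without CON replicate 1 and MAL replicate 4, Atg4b was called against MAL (0.27, adjusted p = 0.0328). Atg16l2, a paralog of the ATG5 partner Atg16l1, fell by 0.46 against MAL (adjusted p = 0.0276), and its value against CON was -0.41 (adjusted p = 0.0619). The call was lost without the same 2 libraries (-0.39, adjusted p = 0.0684). Atg16l1 itself was not called, at 0.34 (adjusted p = 0.0651) and 0.28 (adjusted p = 0.103), but passed without CON replicate 1 and MAL replicate 4 (0.53 and 0.39, adjusted p = 0.00671 and 0.0209). The E1-like enzyme Atg7, the E2-like enzyme Atg10, and the modifier Atg12 were not called, with values of -0.05, 0.32, and 0.03 against CON. Atg10 was called against MAL without the same 2 libraries (0.45, adjusted p = 0.0383).

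The ATG8 family kept the same order of levels per length in the 3 groups. In CON, the means were 220 ± 16.02 CPM per kb for Gabarap (SD, n = 4), 137 ± 38.2 for Gabarapl1, 92.0 ± 26.2 for Map1lc3a, 58.9 ± 5.80 for Map1lc3b, and 19.6 ± 4.37 for Gabarapl2. In MAL-BG they were 240.5 ± 20.6 CPM per kb (SD, n = 7), 81.8 ± 11.6, 71.9 ± 13.7, 64.1 ± 3.85, and 19.3 ± 2.37 in the same order. The ranges of mean ± SD overlapped for Gabarapl1 and Map1lc3a in both groups, and for Map1lc3a and Map1lc3b in MAL-BG only.

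**Figure D4:**
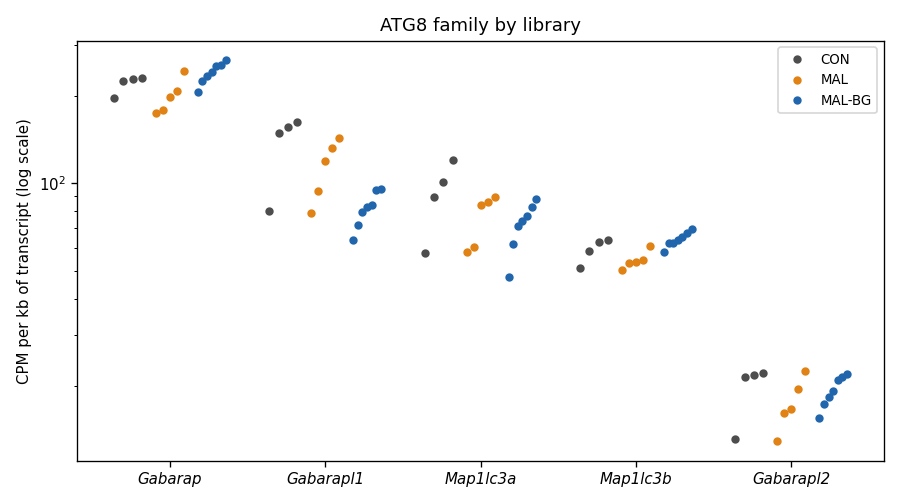
Level of the 5 ATG8 genes in CPM per kb of transcript (log scale) in single libraries of CON (grey), MAL (orange), and MAL-BG (blue), sorted within groups. Gabarap lies highest and Gabarapl2 lowest in every group, and the Gabarapl1 points of MAL-BG lie among the lowest of CON and MAL.

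Gabarapl1, a GABARAP paralog, was the ATG8 gene with the largest difference. It was at 72.6, 141, 135, and 147 CPM in CON, at 84.9, 129, 108, 71.1, and 119 CPM in MAL, and at 57.4 (lowest), 74.6 (median), and 86.4 CPM (highest) in MAL-BG. CON replicate 1 and MAL replicates 1 and 4 lay within the MAL-BG range. These 3 libraries also had the lowest choroid plexus sums of CON and MAL (14000, 12510, and 6503 CPM). The same libraries had the lowest astrocyte sums (308, 490, and 362 CPM) and the highest microglial sums (44940, 37560, and 47290 CPM). The part of these cell types in Gabarapl1 was not tested. Gabarapl1 fell by 0.75 (SE 0.19, adjusted p = 0.00409) against CON and by 0.47 (SE 0.18, adjusted p = 0.0373) against MAL, and without CON replicate 1 and MAL replicate 4 by 0.85 and 0.52 (adjusted p = 0.000168 and 0.00351).

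Gabarap, with the highest level per length of all members, was at 206, 241, 237, and 242 CPM in CON, at 184, 218, 188, 255, and 208 CPM in MAL, and at 217 (lowest), 255 (median), and 280.0 CPM (highest) in MAL-BG. The groups overlapped. Gabarap was higher against MAL (0.26, SE 0.10, adjusted p = 0.0404) but not called against CON (0.13, adjusted p = 0.347), and the value against MAL turned to -0.04 with offsets for length and GC content on TMM.

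Map1lc3b, the LC3 gene most often used as a marker of autophagosomes, was at 84.2, 96.5, 104, and 105 CPM in CON, at 83.0, 101, 88.4, 87.9, and 89.7 CPM in MAL, and at 95.8 (lowest), 106 (median), and 115 CPM (highest) in MAL-BG. All but MAL replicate 2 of the MAL libraries lay below MAL-BG. It was higher against MAL (0.24, SE 0.08, adjusted p = 0.0263), with a value of 0.12 against CON (adjusted p = 0.267). Both the Gabarap and the Map1lc3b call against MAL were lost without MAL-BG replicate 5 (0.23 and 0.21, adjusted p = 0.0833 and 0.0691). Neither call remained without MAL replicate 1, 3, or 5 either, where 4 members were higher against MAL.

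Map1lc3a was at 63.9, 133, 112, and 99.7 CPM in CON, at 66.8, 99.8, 93.6, 64.6, and 95.8 CPM in MAL, and at 52.7 (lowest), 82.3 (median), and 98.4 CPM (highest) in MAL-BG. Its groups overlapped, and the log2 fold changes were -0.36 (adjusted p = 0.141) and -0.07 (adjusted p = 0.759). Without CON replicate 1 and MAL replicate 4, Map1lc3a was called lower against CON (-0.45, adjusted p = 0.0276). Gabarapl2 was at 21.96, 36.6, 35.9, and 37.2 CPM in CON, at 28.0, 37.7, 32.8, 21.6, and 27.1 CPM in MAL, and at 26.0 (lowest), 32.3 (median), and 36.9 CPM (highest) in MAL-BG. The groups overlapped here as well, with values of -0.03 (adjusted p = 0.906) and 0.13 (adjusted p = 0.497).

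On the TMM scaling, all 5 cargo receptors had negative estimates in both MAL-BG comparisons (the sign of Nbr1 turned with offsets for length and GC content on the mean log2 CPM scaling, and that of Sqstm1 against MAL on the mean log2 CPM scaling), and 4 were called lower against CON and 3 against MAL. Calcoco1, a receptor of the endoplasmic reticulum (chr15:102706777-102722178, - strand), was at 67.6, 95.6, 80.9, and 86.3 CPM in CON, at 60.1, 85.3, 90.9, 57.5, and 79.2 CPM in MAL, and at 31.4 (lowest), 44.5 (median), and 53.1 CPM (highest) in MAL-BG. The MAL-BG libraries lay below all others. Calcoco1 fell by 0.94 (SE 0.16, adjusted p = 0.000297) against CON and by 0.80 (SE 0.15, adjusted p = 0.000698) against MAL. Leaving out any 1 library gave values between -1.03 and -0.81 against CON and between -0.88 and -0.67 against MAL.

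Sqstm1, the gene of the ubiquitin receptor p62, had the highest level per length of the receptors (149.9 CPM per kb). It was at 329, 392, 356, and 388 CPM in CON, at 262, 281, 306, 314, and 322 CPM in MAL, and at 256 (lowest), 275 (median), and 302 CPM (highest) in MAL-BG. Both MAL and MAL-BG lay below all CON libraries, and they overlapped each other. Sqstm1 fell by 0.41 (SE 0.09, adjusted p = 0.00192) in MAL-BG against CON. Its value was -0.10 (SE 0.09, adjusted p = 0.336) in MAL-BG against MAL and -0.30 (SE 0.10, adjusted p = 0.9995) in MAL against CON. The exons of Sqstm1 share 580 bases with the antisense gene Mrnip, and those of Becn1 share 3104 bases with Cntd1, whose reads could be told apart only by strand. No other member separated the 5 MAL from the 4 CON libraries. The share of all genes that did so was not counted, so Sqstm1 is not set apart from other genes by this.

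Optn, the receptor optineurin, fell by 0.77 against CON (SE 0.26, adjusted p = 0.0224), with -0.49 against MAL (adjusted p = 0.109). It was at 6.68 CPM in CON replicate 1 and at 11.8 to 13.2 CPM in the other CON libraries, and MAL-BG ran from 4.61 to 10.4 CPM. Tax1bp1, which binds ubiquitin-marked cargo, fell by 0.39 (adjusted p = 0.0288) and 0.36 (adjusted p = 0.0315). Nbr1, a partner of p62, fell by 0.28 against MAL (adjusted p = 0.0449) and had the same value of -0.28 against CON (adjusted p = 0.0552). The Nbr1 call was lost without CON replicate 1 and MAL replicate 4 (-0.28, adjusted p = 0.0566). Under the mean log2 CPM scaling, Tax1bp1 and Nbr1 were not called in either comparison and Optn was not called against CON.

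Both genes of tethering and fusion were lower in both comparisons on TMM, beside 25.2% of all genes against CON and 24.1% against MAL. Epg5 turned with offsets for length and GC content. Stx17, the SNARE protein of the closed autophagosome, was at 37.5, 32.8, 32.7, and 34.2 CPM in CON, at 39.3, 35.6, 35.4, 31.4, and 35.0 CPM in MAL, and at 20.8 (lowest), 22.5 (median), and 37.8 CPM (highest) in MAL-BG. All MAL-BG libraries except replicate 6 were below all CON and MAL libraries. Stx17 fell by 0.43 (SE 0.15, adjusted p = 0.0252) and 0.47 (SE 0.14, adjusted p = 0.0109), and by 0.55 and 0.59 without MAL-BG replicate 6. Without CON replicate 1 and MAL replicate 4, the Stx17 value against CON was -0.30 (adjusted p = 0.171) and the call was lost. Epg5, a tether to late endosomes and lysosomes, fell by 0.39 (SE 0.12, adjusted p = 0.0153) and 0.45 (SE 0.11, adjusted p = 0.00430). Its call against CON was likewise lost without CON replicate 1 and MAL replicate 4 (-0.21, adjusted p = 0.183). With offsets for length and GC content the values of Epg5 were 0.06 and 0.03 on TMM and 0.30 and 0.26 on the mean log2 CPM scaling.

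Of 49 further genes of the pathway, 16 were higher and 8 lower in MAL-BG against CON (19.8% and 25.2% of all genes), and 16 were higher and 7 lower against MAL (20.2% and 24.1% of all genes). The DEGs in both comparisons were Sec62, Foxo1, Tfeb, Retreg1, and Ykt6 among the higher and Foxo3 and Mtor among the lower. These 7 genes, picked as DEGs of both comparisons, did not overlap between MAL-BG and the other 9 libraries (6.17% of all genes lay above and 6.36% below), and all 7 were called under the 6 scalings and without any 1 library. Between MAL and CON, edgeR called 0 of the 49.

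Among 8 transcription factors of autophagy and lysosome genes, 2 were higher and 1 lower in each MAL-BG comparison. Of all genes, 19.8% were higher and 25.2% lower against CON, and 20.2% and 24.1% against MAL. Tfeb, a factor that activates lysosomal and autophagy genes, was at 85.3, 65.1, 67.9, and 64.0 CPM in CON, at 71.3, 73.1, 67.8, 83.7, and 65.3 CPM in MAL, and at 94.0 (lowest), 115 (median), and 173 CPM (highest) in MAL-BG. It rose by 0.78 (SE 0.14, adjusted p = 0.000557) and 0.74 (SE 0.13, adjusted p = 0.000452). Foxo1 rose by 0.79 (adjusted p = 0.000438) and 0.80 (adjusted p = 0.000255), while its paralog Foxo3 fell by 1.57 (adjusted p = 0.000777) and 1.64 (adjusted p = 0.000425). The FOXO factors likewise act on autophagy genes. Foxo3 ran from 23.7 to 31.4 CPM in CON and MAL and from 3.17 to 16.7 CPM in MAL-BG.

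Mtor, the kinase that holds the ULK complex inactive when nutrients are at hand, was at 59.7, 55.6, 56.7, and 49.9 CPM in CON, at 55.1, 64.5, 63.6, 48.6, and 64.4 CPM in MAL, and at 18.5 (lowest), 24.7 (median), and 47.7 CPM (highest) in MAL-BG. MAL-BG replicate 6 lay just below the lowest MAL library. Mtor fell by 0.97 (SE 0.19, adjusted p = 0.000673) and 1.06 (SE 0.17, adjusted p = 0.000239). Of the other 7 nutrient-sensing kinase genes, Prkag1 was higher in both comparisons (0.53 and 0.48) and Prkaa1 against CON only in its call (0.30 and 0.07). The call of Prkaa1 was lost without CON replicate 1, 3, or 4 or MAL-BG replicate 5 (adjusted p up to 0.0889). Prkag1 and Prkaa1 code for subunits of AMP-activated kinase and were named after their values were seen. Prkab1, a further subunit gene on the list, was not called (0.26 and 0.26, adjusted p = 0.235 and 0.199). Of the 8 kinase genes, 2 were higher and 1 lower against CON, beside 19.8% and 25.2% of all genes. Against MAL, 1 was higher and 1 lower, beside 20.2% and 24.1%.

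Of 13 genes of selective autophagy, 6 were higher and 2 lower against CON, and 7 were higher and 2 lower against MAL. For this and the next group counts, the shares of all genes were 19.8% and 25.2% against CON. Against MAL they were 20.2% and 24.1%, and no group was tested against them. The DEGs in both were Sec62, a receptor that acts in recovery from stress of the endoplasmic reticulum, and Retreg1, which bends that membrane for its own degradation. Sec62 rose by 0.82 (SE 0.18, adjusted p = 0.00205) and 0.84 (SE 0.17, adjusted p = 0.00103), from 217 to 307 CPM in CON and MAL to 308 to 590 CPM in MAL-BG. Retreg1 rose by 0.73 (SE 0.13, adjusted p = 0.000388) and 0.65 (SE 0.12, adjusted p = 0.000517), from 105 to 156 CPM to 167 to 238 CPM. Further receptors of the endoplasmic reticulum on the list, Rtn3 (0.54 and 0.58) and Ccpg1 (0.45 and 0.49), were also higher in both, while Tex264 was higher against MAL only in its call (0.19 and 0.37). The call of Tex264 was lost without MAL replicate 1 or 4 (adjusted p up to 0.0677) and with offsets for length and GC content on TMM. These 3 genes were named after their values were seen, and Calcoco1, the receptor of the same organelle among the members, fell. Among 12 genes of fusion and tethering outside the members, 4 were higher and 2 lower in each comparison, and Ykt6, a SNARE protein of the autophagosome, rose by 0.64 (SE 0.11, adjusted p = 0.000322) and 0.68 (SE 0.10, adjusted p = 0.000124). Among 8 modulators, 2 were higher in each comparison, and 2 were lower against CON and 1 against MAL.

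**Figure D5:**
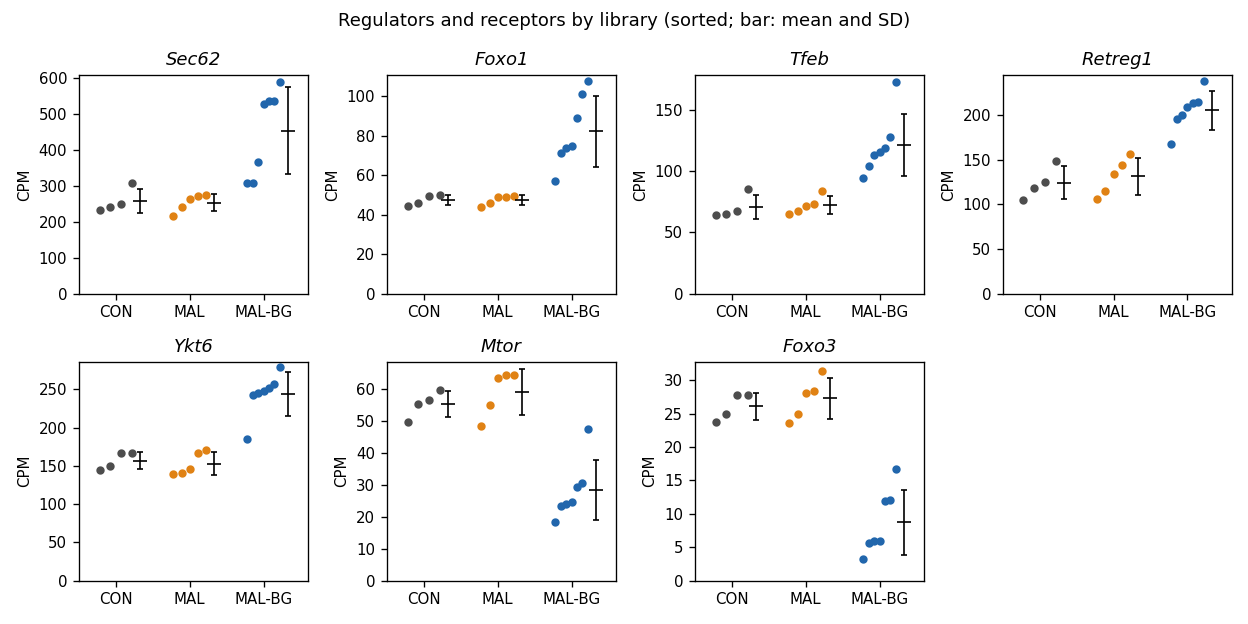
CPM of single libraries (points, sorted within each group) with the mean and SD of the group for the 7 pathway genes outside the members that were DEGs in both MAL-BG comparisons. MAL-BG lies above all other libraries for Sec62, Foxo1, Tfeb, Retreg1, and Ykt6 and below them for Mtor and Foxo3.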

How the data were processed

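RNA-Seq libraries of CD11b+ brain cells were analysed, 1 per mouse. The authors prepared stranded poly(A) libraries, aligned paired reads to GRCm38.p6 with STAR, counted reads per gene with HTSeq, and deposited the counts without normalization. The counting mode, strand option, and annotation are not given in the sources used here. Groups were read from the column names, whose running numbers match no sample title. The authors' own fit held a batch term. Batch could not be assigned to these columns, so no batch term was fitted and the part of batch in the values was not tested.

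The 14565 genes above 10 counts in 4 or more libraries were scaled with TMM, and all groups entered 1 fit of edgeR 4.0.16 (R 4.3.3) for quasi-likelihood tests. Benjamini-Hochberg adjustment was made over all genes of a comparison. DEGs also had a log2 fold change above 0.58 in size. Levels per kb used the median length of protein-coding transcripts in GENCODE M21 for GRCm38.p6, and 14455 genes tested (99.2%) had a known length and GC content. Promoters were those of RefSeq.

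Members, roles, marker lists, and further pathway genes were chosen with earlier results of these data known, so lists were described and not tested. Values by library (in MAL-BG the lowest, median, and highest) are given for members that were DEGs of both MAL-BG comparisons, for the member with the highest mean level per kb in each role, and for the ATG8 genes. Further pathway genes were named where they were DEGs in both, and 5 more, with Prkab1 beside them, after their values were seen.

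Alternatives were other scalings, DESeq2 1.42.0 without a batch term, other filters, fits restricted to the groups under comparison, libraries thinned to the smallest total, offsets for length and GC content, and each library left out in turn. Leaving out CON replicate 1 and MAL replicate 4 together was added after the data were seen. Within groups, 2 libraries always differed by more than counting noise (lowest chi-square over its degrees of freedom 8.5). Errors therefore reflect the spread between libraries, with 1 library per mouse, and the sources of that spread were not separated.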

Additional observations from a re-analysis of the deposited data

Results flagged for a closer look

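Of 132 sets of libraries (each of the 42 members, Rubcn, and the summed level, in each group), 13 had 1 library farther from the others than Dixon's 95% limit allows. Chance gives about 1 in 20 for independent sets, but these sets share the same 16 libraries. The share over all genes was not counted. The libraries concerned were mostly CON replicate 1 and MAL replicate 4. CON replicate 1 was the lowest of its group for Gabarap (206.4 CPM, others 237 to 242), Gabarapl1 (72.6 CPM, others 135 to 147), Gabarapl2 (21.96 CPM, others 35.9 to 37.2), Optn (6.68 CPM, others 11.8 to 13.2), and Tax1bp1 (122.4 CPM, others 187 to 199.5), and the highest for Pik3r4 (45.8 CPM, others 34.5 to 35.1). MAL replicate 4 was the highest of its group for Atg101 (46.7 CPM, others 29.3 to 32.97) and Becn1 (126.8 CPM, others 101.5 to 103.9), and the lowest for Nbr1 (117.8 CPM, others 146.5 to 158.6).

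Atg16l2 was lowest in MAL replicate 5 (11.95 CPM, highest 16.9). Atg4d was lowest in CON replicate 4 (28.8 CPM, others 36.2 to 36.9) and in MAL-BG replicate 6 (23.3 CPM, others 32.9 to 40.4). Atg2a was highest in MAL-BG replicate 2 (56.9 CPM, others 37.7 to 44.2).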

How the results depend on the processing

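No paired analysis was possible because the running numbers of the columns match no sample title. With filterByExpr, the direction and call of every member held in both MAL-BG comparisons. On the mean log2 CPM scaling, 15 members were higher and 4 lower against CON (4656 and 2613 of all genes). Against MAL, 14 were higher and 3 lower (4765 and 2468 of all genes). Among members, 4 DEGs were higher and 1 lower in each, and median log2 fold changes were 0.22 and 0.17. With offsets for length and GC content on that scaling, 14 were higher and 6 lower against CON (8 DEGs higher) and 15 higher and 5 lower against MAL (5 DEGs higher, 1 lower), with medians of 0.19 and 0.17. With the offsets on TMM, 7 were higher against CON and 7 lower against MAL, with 1 DEG higher in each. With CON replicate 1 and MAL replicate 4 both left out, 7 were higher and 9 lower against CON and 10 higher against MAL.

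With single libraries left out, 3 to 6 members were higher and 6 to 16 lower against CON, and 4 to 8 higher and 6 to 15 lower against MAL. Of all genes, 2257 to 3164 were higher and 2943 to 3970 lower against CON. Against MAL, 2383 to 3234 were higher and 2792 to 3878 lower. DEGs higher and lower numbered 2 to 2 and 3 to 7 against CON and 1 to 3 and 2 to 4 against MAL, and medians ranged from -0.10 to 0.058 and from -0.087 to 0.007.

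Signs that turned are listed for values called in the main fit or with the offsets, against CON and MAL in this order. With the offsets on the mean log2 CPM scaling they turned for Rb1cc1 (0.21 and 0.16), Rubcn (0.11 and 0.066), Atg2a (0.23 and 0.29), Atg4d (0.51 and 0.47), and Epg5 (0.30 and 0.26). They also turned against CON for Ambra1 (0.033) and Atg9a (0.39), and against MAL for Nbr1 (0.13). With the offsets on TMM they turned for Epg5 (0.06 and 0.028) and, against MAL, for Atg2a (0.062) and Gabarap (-0.039). Sign changes of values called in neither fit are left out here. The cause of the turned signs was not tested. Depth limits Atg4a most, at 0.843 CPM in its lowest library.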
